A study of Arabidopsis thaliana with 12 samples.

Results

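The probe sets described here are those of 2 enzyme families of Arabidopsis thaliana that attach a sugar or glutathione to small molecules: the UDP-glycosyltransferases (UGT) and the tau class of glutathione transferases (GSTU). They were taken by name, as every probe set that the platform annotation paired with 1 gene whose symbol started with UGT or GSTU and a digit. This gave 58 of the 22746 probe sets that were not Affymetrix controls, 47 for UGT genes and 11 for GSTU genes. Another 3 probe sets paired a UGT with a further gene and were left out. The TAIR10.1 annotation lists 58 UGT and 27 GSTU symbols, so 16 GSTU genes in particular are not covered by these members.

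Transcript levels were measured on 12 Affymetrix arrays, 1 per RNA sample, from whole wild-type seedlings of the Columbia ecotype, 3 days old and raised in liquid MS medium after a cold treatment under foil. The 4 treatments, with 3 biological replicates each, were 10 mM sucrose with 0.2 µM sulfamethoxazole (SMX), 10 mM sucrose alone, 0.2 µM SMX alone, and no addition (control). SMX is a sulfonamide that blocks an enzyme of folate synthesis. Whole seedlings mix all tissues, so fewer cells of a type and less RNA per cell cannot be told apart in these values.

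UGTs transfer a sugar, mostly glucose, from a UDP-sugar to hormones, phenylpropanoids, flavonoids, sterols and foreign compounds, which makes them more soluble and often inactive. Tau glutathione transferases, a class found in plants, join glutathione to electrophilic compounds such as herbicides and products of oxidative stress. In plants both reactions are the conjugation phase of detoxification, after which the conjugates are moved into the vacuole. Both families are large, and many of their genes lie in rows of close paralogs.

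Each probe set has 1 log2 value on each array. The lowest value on every array was 2.12, and levels of different probe sets are not comparable with each other. Of the 58 members, 28 had a mean above 5 in at least 1 treatment and are called expressed below, 21 of 47 UGT and 7 of 11 GSTU probe sets. That limit was passed narrowly by UGT73B1 (highest group mean 5.001) and UGT71B1 (5.15) and missed narrowly by UGT71C2 (4.93), UGT76E11 (4.86) and UGT73B5 (4.84). Of the 26 UGT probe sets that were not expressed, 7 gave the same value within 0.01 on all 12 arrays, among them UGT71B6, UGT84B1, UGT84B2 and UGT85A3. Of the 4 GSTU probe sets that were not expressed, GSTU15, GSTU21 and GSTU23 never reached 3, and GSTU18 lay between 2.80 and 5.01.

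The arrays with and without sucrose also differed in labelling. The log2 difference between 3′ and 5′ probe sets of Bacillus transcripts made to be added to the RNA, averaged over dap, lys and phe and here called the spike score, was 0.72 to 1.44 with sucrose plus SMX and 0.78 to 1.59 with sucrose, against 4.24 to 7.45 with SMX and 3.95 to 6.31 in the control. The same difference for actin (the actin score) was 0.96 to 1.43 with sucrose plus SMX and 0.95 to 1.97 with sucrose, against 5.25 to 7.99 with SMX and 3.49 to 7.36 in the control. Neither score overlapped between arrays with and without sucrose, so sucrose and labelling cannot be told apart in any comparison across that line. SMX comparisons at 1 sucrose level do not cross it.

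**Figure D1:**
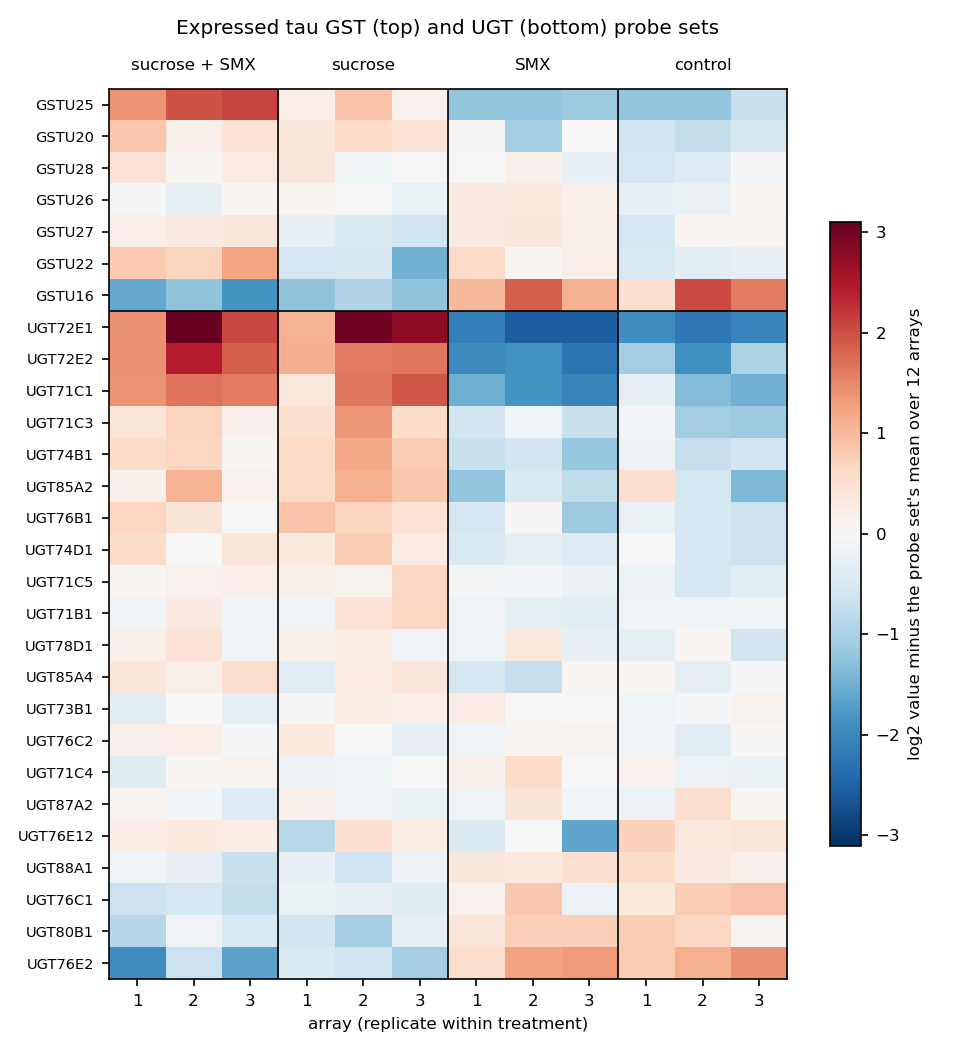
Log2 values of the 28 expressed members on each of the 12 arrays, shown as the difference from that probe set's mean over the 12 arrays (colour scale, log2 units), with GSTU members above and UGT members below the line and rows ordered by the sucrose difference. UGT72E1, UGT72E2 and UGT71C1 are high on the 6 arrays with sucrose, while GSTU16 and UGT76E2 are low there.

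The first question was how sucrose alone altered both families. UGT72E1, UGT72E2 and UGT71C1, enzymes of phenylpropanoid glucosides, had the largest rises of the UGT family, and UGT76E2 had its largest fall. Of the tau glutathione transferases GSTU25 and GSTU20 rose and GSTU16 fell. Two-sided limma tests were run over all probe sets with all 12 arrays in 1 fit, and a probe set is said to be called, to rise or to fall where the p adjusted by the Benjamini-Hochberg method (adjusted p) was under 0.05. With sucrose alone 8 UGT probe sets rose and 5 fell of 47, and 2 GSTU probe sets rose and 1 fell of 11. These are 27.7% of the UGT and 27.3% of the GSTU members, against 23.5% of all probe sets (11.9% up and 11.6% down), so the shares of both families were near that of the whole array. Among probe sets with a group mean above 5, a choice that favours those that differ, 12 of 21 UGT and 3 of 7 GSTU members were called, against 37.2% of all. Without control replicate 2 or without sucrose replicate 2, 8 UGT probe sets were called. The median change was 0.0 in each family and over all probe sets. Among probe sets with a group mean above 5 it was 0.35 for UGT and 0.10 for GSTU members, against −0.02 for all. Single changes of the called members ran from −2.53 for GSTU16 to 4.35 for UGT72E1.

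UGT72E1, which glucosylates coniferyl and sinapyl aldehyde, read 7.78, 9.74 and 9.49 with sucrose, against 4.80, 4.49 and 4.67 in the control. The groups were far apart although sucrose replicate 1 was about 2 units under the other sucrose arrays. The log2 change was 4.35 (SE 0.547), or 20.4-fold (adjusted p = 0.00143).

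UGT72E2, which glucosylates the monolignols coniferyl and sinapyl alcohol, read 8.08, 8.57 and 8.59 with sucrose, against 5.89, 5.06 and 6.0 in the control. All sucrose arrays lay above all control arrays, and the change was 2.76 (SE 0.317; adjusted p = 0.000961). The third gene of that subgroup, UGT72E3, stayed between 2.12 and 4.04 on all 12 arrays and was not called (0.46, 95% interval −0.58 to 1.51). UGT71C1, which accepts flavonoids and hydroxycinnamates in vitro, read 7.27, 8.57 and 8.86 with sucrose, against 6.64, 5.58 and 5.44 in the control. It rose by 2.35 (SE 0.44; adjusted p = 0.00669), and its lowest sucrose value and its highest control value were both in replicate 1.

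Rises of about 0.6 to 1.6 were found in UGTs that act on hormones, defence compounds and glucosinolates. UGT71C3, which glucosylates methyl salicylate, averaged 5.78 ± 0.48 with sucrose and 4.19 ± 0.59 in the control (SD, n = 3 each), a change of 1.58 (SE 0.341; adjusted p = 0.0118). UGT74B1, the S-glucosyltransferase of glucosinolate synthesis, averaged 8.86 ± 0.28 with sucrose and 7.52 ± 0.28 in the control, a change of 1.34. UGT76B1, which glucosylates isoleucic acid, salicylic acid and N-hydroxypipecolic acid, averaged 9.35 ± 0.22 with sucrose and 8.21 ± 0.23 in the control, a change of 1.15. UGT74D1, which glucosylates auxin and its oxidised form, averaged 8.30 ± 0.29 with sucrose and 7.48 ± 0.35 in the control, a change of 0.82. UGT71C5, which makes the glucose ester of abscisic acid, averaged 8.44 ± 0.29 with sucrose and 7.80 ± 0.20 in the control, a change of 0.65. In each of these 5 genes the 3 sucrose arrays lay above the 3 control arrays. The adjusted p of the last 4 lay between 0.00572 and 0.0246, and over all probe sets the groups did not overlap in 34.9%. UGT85A2 also lay higher on every sucrose array, 9.93, 10.4 and 10.2 against 9.83, 8.77 and 7.92 in the control, but its control arrays were spread over nearly 2 units and its change of 1.33 was not called (adjusted p = 0.0739).

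Of the UGT probe sets that fell, 4 were expressed, and UGT85A5 was not. UGT76E2 read 5.38, 5.22 and 4.77 with sucrose, against 6.62, 6.94 and 7.25 in the control, a change of −1.81 (SE 0.357; adjusted p = 0.00823). UGT80B1, a sterol glucosyltransferase, averaged 5.93 ± 0.39 with sucrose and 7.07 ± 0.38 in the control (SD, n = 3 each), a change of −1.14. UGT76C1, a cytokinin N-glucosyltransferase, averaged 5.95 ± 0.09 with sucrose and 6.89 ± 0.31 in the control, a change of −0.95. UGT88A1 averaged 7.28 ± 0.23 with sucrose and 7.97 ± 0.22 in the control, a change of −0.68. For these 4 genes the sucrose arrays all lay under the control arrays, with adjusted p between 0.00823 and 0.0245. UGT76C2, the other cytokinin N-glucosyltransferase, moved by 0.13 (95% interval −0.21 to 0.47), and UGT78D1, the flavonol 3-O-rhamnosyltransferase, by 0.35 (95% interval −0.14 to 0.85), neither called.

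Among the tau glutathione transferases GSTU16 had the largest change. It read 3.96, 4.27 and 3.95 with sucrose, against 5.72, 7.26 and 6.80 in the control, a change of −2.53 (SE 0.389; adjusted p = 0.00307). The sucrose arrays were tightly grouped and the control arrays were not. GSTU25, known for conjugating the explosive TNT, read 4.91, 5.57 and 4.84 with sucrose, against 3.48, 3.48 and 4.00 in the control, a change of 1.45 (SE 0.248; adjusted p = 0.00458). Its values of 3.48 are the lowest it had on any array and were shared, within 0.01, by 4 arrays, so the size of a change against them is not exact. GSTU20, which binds the jasmonate-conjugating enzyme JAR1, read 8.30, 8.58 and 8.39 with sucrose, against 7.35, 7.22 and 7.45 in the control, and rose by 1.08 (SE 0.294; adjusted p = 0.0295). The GSTU20 call ended without any 1 of the 6 arrays compared, with adjusted p up to 0.0963.

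The remaining expressed GSTU members were not called for sucrose alone. Their changes were 0.10 for GSTU26 (95% interval −0.17 to 0.37), 0.40 for GSTU28 (−0.01 to 0.81), −0.31 for GSTU27 (−0.70 to 0.07) and −0.49 for GSTU22 (−1.1 to 0.12). In a fit of only the 6 arrays compared, 9 of the 16 members called for sucrose alone stayed called. UGT71C1 (adjusted p = 0.0835), UGT71C3, UGT71C5, UGT74D1, UGT80B1, UGT88A1 and GSTU25 (0.0522) did not. Besides GSTU20, leaving out 1 array ended the call of UGT76B1 and UGT76C1 for 4 of the 12 arrays each, of UGT74D1 and UGT88A1 for 3 each, of UGT80B1 for 2 and of UGT71C5 for 1. In a fit that also held the spike score, 0 of the 16 members called for sucrose alone stayed called, and with the actin score 1 of 16 did, UGT85A5. Because neither score overlapped between arrays with and without sucrose, such fits cannot separate labelling from sucrose. All 16 kept their sign under both scores, and their median size was 1.09 and 1.04, against 1.25 without a score. UGT72E1 was then 3.24 (SE 1.03) and 3.57 (SE 0.978), UGT72E2 2.57 (SE 0.654) and 2.26 (SE 0.56), and UGT71C1 1.10 (SE 0.746) and 1.09 (SE 0.626). GSTU16 was −1.43 (SE 0.659) and −1.03 (SE 0.333) and UGT76C1 −0.15 and −0.14, while GSTU25 was 1.58 and 1.54.

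**Figure D2:**
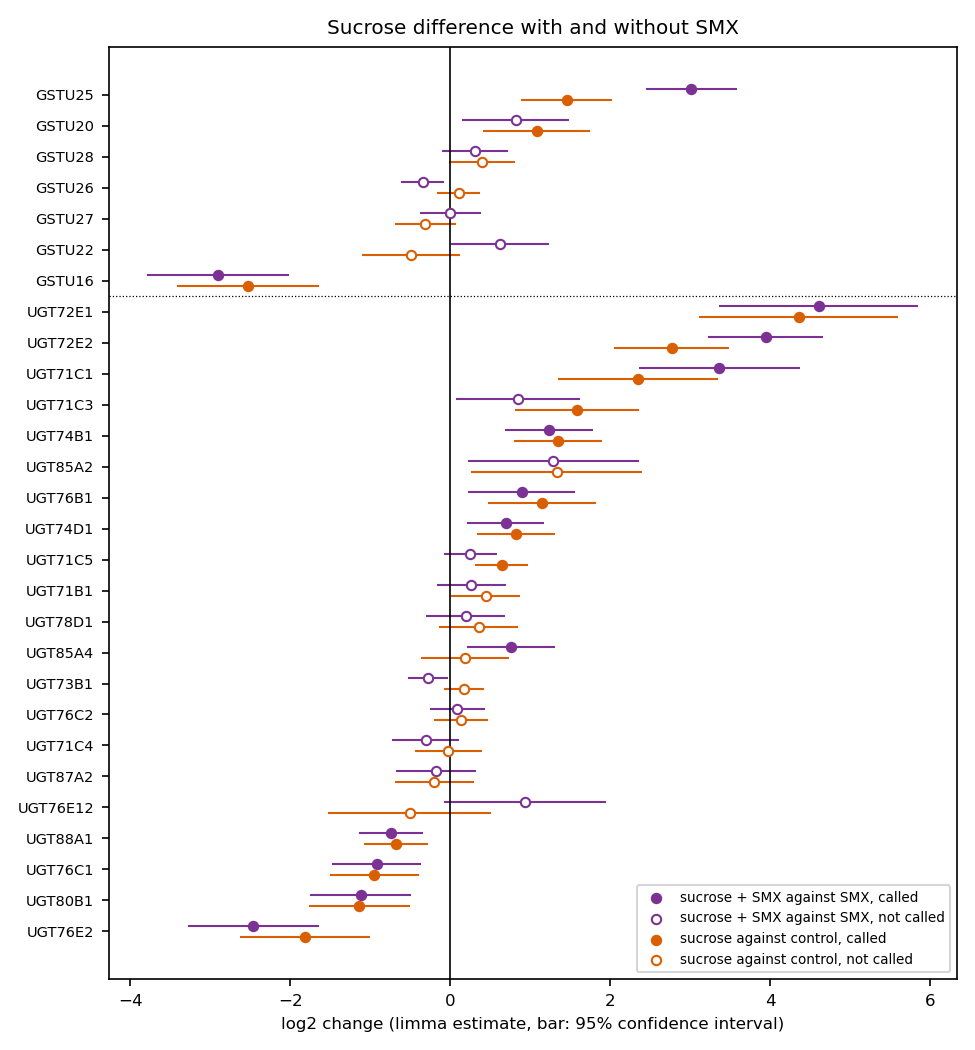
Log2 change with sucrose in the 28 expressed members, in the presence of SMX (sucrose plus SMX against SMX, purple) and in its absence (sucrose against control, orange), with 95% confidence intervals from limma; filled points were called. GSTU members stand above the dotted line. UGT72E1 lies at 4.60 and 4.35, GSTU16 at −2.90 and −2.53, and GSTU25 at 3.01 and 1.45.

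Sucrose was also compared in seedlings that all received SMX, on 6 further arrays that share none with the comparison above, though both use the spread of all 12. Here 8 UGT probe sets rose and 4 fell, and 1 GSTU probe set rose and 1 fell, with 32.5% of all probe sets called, 16.2% in each direction. Among those with a group mean above 5 it was 11 of 21 UGT and 2 of 7 GSTU members, against 50.4% of all. Without sucrose plus SMX replicate 1, 7 UGT probe sets were called, and without control replicate 3 or sucrose replicate 3, 4 GSTU probe sets were. Of the 16 members called for sucrose alone, 12 were called again in the same direction (75.0%), which is 85.7% of the 14 called here. Over all probe sets these shares were 85.8% and 62.0%. UGT72E1 read 8.13, 9.79 and 8.79 with sucrose plus SMX, against 4.60, 4.15 and 4.15 with SMX, a change of 4.60 (SE 0.547). Its value of 4.15 was its lowest on any array and was shared, within 0.01, by 2 arrays, so this size is not exact. UGT72E2 changed by 3.94 (SE 0.317), UGT71C1 by 3.36 (SE 0.44), UGT76E2 by −2.46 (SE 0.357) and GSTU16 by −2.90 (SE 0.389). All 5 had an adjusted p of 0.00125 or less.

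GSTU25 had its largest change of all comparisons here. It read 6.10, 6.68 and 6.80 with sucrose plus SMX, against 3.48, 3.48 and 3.57 with SMX, a change of 3.01 (SE 0.248; adjusted p = 0.000124), whose size is not exact because the SMX values lie at or near the lowest of GSTU25. With the actin score it stayed called (adjusted p = 0.0473), and with the spike score it was 3.16 (adjusted p = 0.0686). UGT71C2, a neighbour and close paralog of UGT71C1, was called here at 2.23 (SE 0.548), with 4.86, 5.31 and 4.63 with sucrose plus SMX, against 2.47, 2.83 and 2.80 with SMX. For sucrose alone it had changed by 1.65 without a call, and sucrose replicate 1 read 3.41 beside 5.91 and 5.21 on the other sucrose arrays. UGT85A4 was called at 0.75 (adjusted p = 0.042). Leaving out 1 array ended the call of UGT76B1 for 10 of the 12 arrays, of UGT85A4 for 9, of UGT74D1 for 5, of UGT76C1 for 2 and of UGT80B1 for 1.

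**Figure D3:**
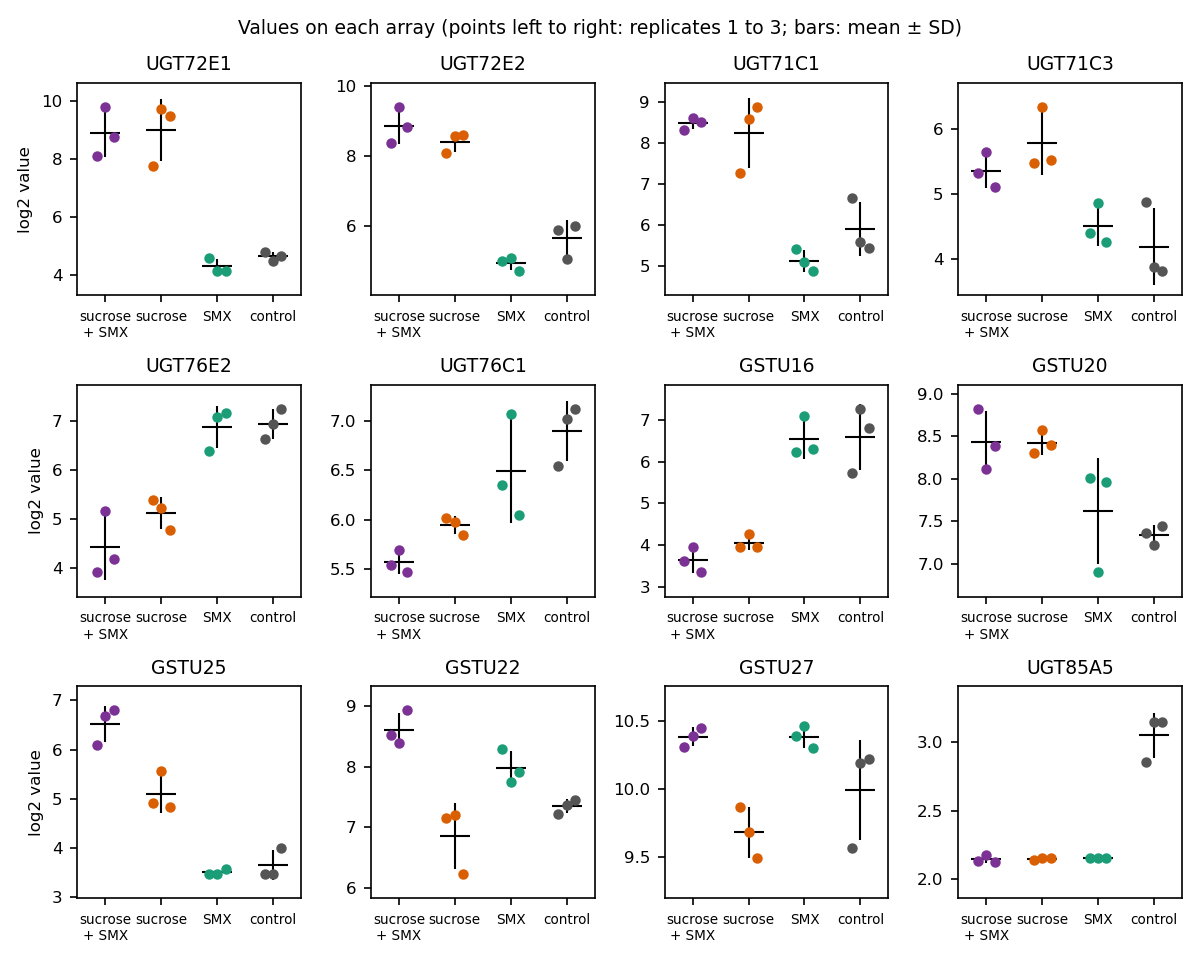
Log2 values of 12 members on each array (points, replicates 1 to 3 from left to right) with mean ± SD per treatment; each panel has its own axis, which does not start at 0. GSTU25 and GSTU22 are highest with sucrose plus SMX, and UGT85A5 is above 2.8 on the 3 control arrays and under 2.2 on the other 9.

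Both additions together, against the same control arrays as for sucrose alone, gave 9 UGT probe sets up and 5 down and 4 GSTU probe sets up and 1 down. These are 29.8% of the UGT and 45.5% of the GSTU members, against 27.2% of all probe sets (13.5% up and 13.7% down). Among those with a group mean above 5 it was 11 of 21 UGT and 5 of 7 GSTU members, against 42.9% of all. The UGT count was 7 without sucrose plus SMX replicate 1 or 3, 8 without control replicate 2 or 3, and 9 without sucrose plus SMX replicate 2. GSTU22 read 8.52, 8.38 and 8.92 with sucrose plus SMX, against 7.22, 7.37 and 7.45 in the control, and rose by 1.26 (SE 0.269; adjusted p = 0.00913). GSTU25 rose by 2.87 (SE 0.248), GSTU20 by 1.10 (SE 0.294) and GSTU28 by 0.58 (SE 0.181), while GSTU16 fell by 2.95. Leaving out 1 array ended the call of GSTU28 for 7 of the 12 arrays, of GSTU20 for 4, of UGT71C2 for 10, of UGT71C5 and UGT74D1 for 9 each, of UGT71C3 for 6, of UGT73B5 for 5, of UGT74B1 and UGT80B1 for 4 each and of UGT88A1 for 1. The count of 5 fell to 3 without sucrose plus SMX replicate 1, sucrose plus SMX replicate 3 or control replicate 2. Among UGTs, UGT73B5, which is known to respond to oxidative stress and pathogens, averaged 4.83 ± 0.20 with sucrose plus SMX and 3.68 ± 0.55 in the control (SD, n = 3 each), a change of 1.15 (SE 0.337; adjusted p = 0.0343). GSTU25 stayed called with either labelling score, as did UGT85A5, and the other 17 of the 19 members did not. All 19 kept their sign, and the median size was 1.07 (spike score) and 1.13 (actin score), against 1.17 without a score. GSTU22 was 1.07 (SE 0.548) and 1.31 (SE 0.536). As above, such fits cannot separate labelling from sucrose.

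SMX alone gave 1 call in both families together. Of 11 GSTU probe sets 0 were called and of 47 UGT probe sets 1, which fell, against 0.0835% of all probe sets (0.0659% up and 0.0176% down). At an unadjusted p under 0.05 it was 3 of 11 GSTU and 3 of 47 UGT probe sets, against 6.64% of all probe sets. In GSTU22 the change was 0.64 (95% interval 0.03 to 1.25), in GSTU26 0.40 (0.13 to 0.67) and in GSTU27 0.39 (0.01 to 0.77). These were the 3 of 11 GSTU members whose SMX arrays all lay above the control arrays, as was the case in 4.1% of all probe sets. Their unadjusted p were 0.043, 0.00898 and 0.047 and their adjusted p 0.728, 0.614 and 0.744, so none passed. Of the 47 UGT members 3 had all SMX arrays below the control arrays, as did 3.36% of all probe sets. UGT76E12 had the most negative change of the expressed UGT members, at −1.15 (95% interval −2.16 to −0.13; adjusted p = 0.71), with 4.70, 5.13 and 3.49 with SMX, against 5.83, 5.43 and 5.5 in the control.

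The 1 call for SMX alone was UGT85A5, a gene whose overexpression has been reported to raise salt tolerance in tobacco. It read 2.15 on all 3 SMX arrays, against 2.86, 3.15 and 3.15 in the control, a change of −0.90 (SE 0.0675; adjusted p = 0.00356). It was also low with sucrose plus SMX (2.13, 2.17 and 2.12) and with sucrose alone (2.13, 2.15 and 2.15), with changes of −0.91 (adjusted p = 0.000112) and −0.91 (0.000161) against the control. All 3 changes rest on the same 3 control arrays. All values lie within about 1 unit of the lowest value of the arrays, 2.12, so the sizes are not exact, and the gene was not among the expressed members. The SD was 0.167 in the control, but 0.0002 with SMX, 0.011 with sucrose and 0.027 with sucrose plus SMX. The SE and p of the main fit pool these, so they understate the spread of the control arrays. A fit of the 6 arrays compared alone gave an SE of 0.0913 and did not call UGT85A5 for SMX (adjusted p = 0.505).

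**Figure D4:**
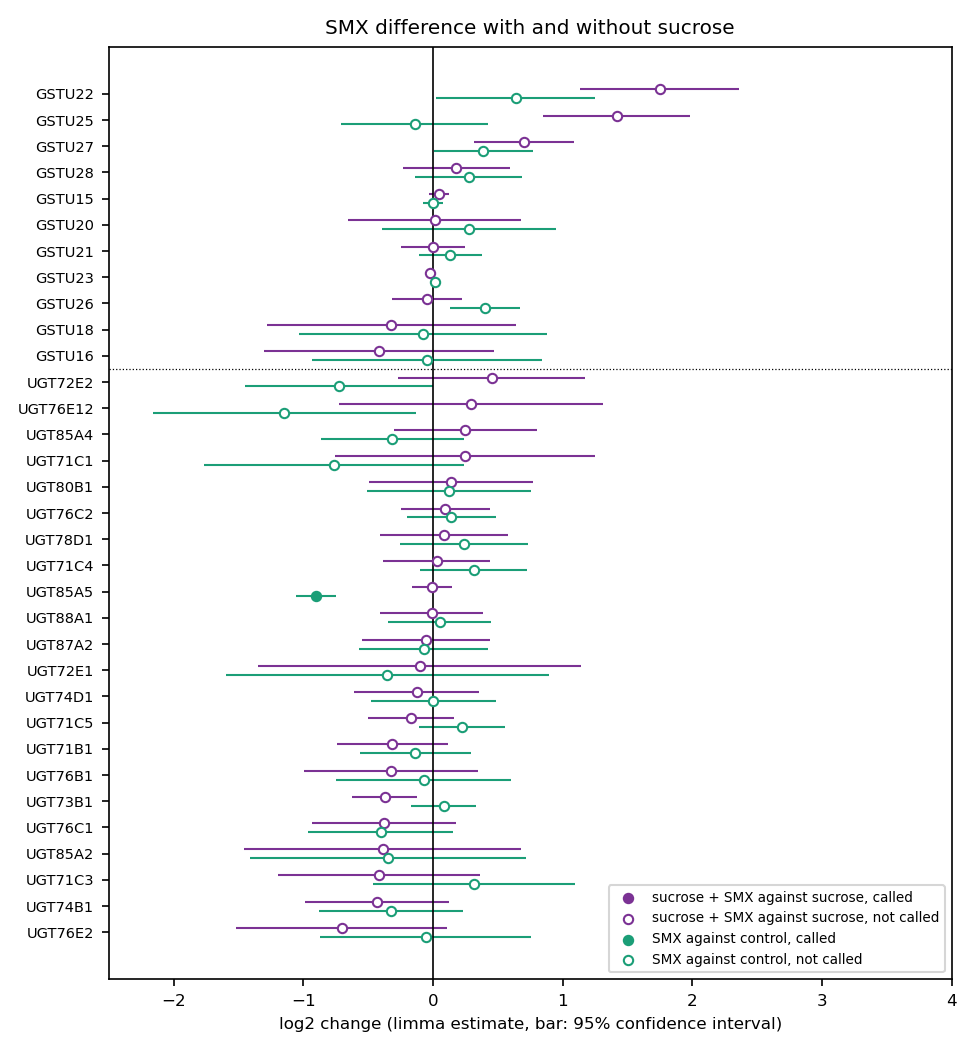
Log2 change with SMX in all 11 GSTU members (above the dotted line), the 21 expressed UGT members and UGT85A5, in the presence of sucrose (sucrose plus SMX against sucrose, purple) and in its absence (SMX against control, green), with 95% confidence intervals from limma; the filled point, UGT85A5 at −0.90, was called. GSTU22, GSTU25 and GSTU27 have the highest purple values, at 1.75, 1.42 and 0.70.

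Adding SMX to sucrose gave 0 calls among the 58 members by limma, against 0.189% of all probe sets (0.119% up and 0.0703% down). At an unadjusted p under 0.05 it was 3 of 11 GSTU and 1 of 47 UGT probe sets, against 5.52% of all probe sets. Of the GSTU members, 3 of 11 lay higher on every array with sucrose plus SMX than on every array with sucrose, as did 4.64% of all probe sets. GSTU22 read 8.52, 8.38 and 8.92 with sucrose plus SMX, against 7.15, 7.2 and 6.23 with sucrose, a change of 1.75 (95% interval 1.14 to 2.36; adjusted p = 0.0648). GSTU25 read 6.10, 6.68 and 6.80 with sucrose plus SMX, against 4.91, 5.57 and 4.84 with sucrose, a change of 1.42 (0.85 to 1.98; adjusted p = 0.105). GSTU27 read 10.3, 10.4 and 10.5 with sucrose plus SMX, against 9.87, 9.68 and 9.49 with sucrose, a change of 0.70 (0.32 to 1.09; adjusted p = 0.272).

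None of these 3 passed over all probe sets in that fit, with unadjusted p of 0.000137, 0.000349 and 0.00263. GSTU22 and GSTU25 were called when only probe sets with a mean above 4 were tested (adjusted p = 0.00998 and 0.0229). GSTU25 passed that filter only through its arrays with sucrose, so its call there adds no support. GSTU22 was also called after median centring (0.0311) or without sucrose replicate 3 (0.0477). Neither was called with only the arrays compared (adjusted p = 0.427 and 0.476) or the replicate block (0.164 and 0.15). The same held for quantile normalization (0.0768 and 0.111), the spike score (0.119 and 0.165) and the actin score (0.127 and 0.162). GSTU27 was called without control replicate 1 (0.0447), an array that is not part of this comparison and enters only through the shared spread. It was not called without any other single array, with adjusted p up to 0.6545. The spike scores of these 6 arrays overlapped, and in the fit with the spike score the changes were 1.75, 1.41 and 0.70. No UGT member had all sucrose plus SMX arrays above the sucrose arrays. UGT73B1 and UGT76C1 had them all below, with changes of −0.37 and −0.38, not called, as did 5.06% of all probe sets.

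Whether SMX acted differently with and without sucrose was tested by the interaction, the SMX change with sucrose minus the SMX change without it. UGT85A5 alone was called, at 0.90 (SE 0.0955; adjusted p = 0.0381, with 0.0703% of all probe sets called, 0.0352% in each direction). That call ended with the replicate block (adjusted p = 0.091), after median centring (0.0521), with the spike score (0.0541) and without any 1 of 9 arrays. With sucrose alone UGT85A5 already read 2.13, 2.15 and 2.15, near the lowest value of the arrays, 2.12. SMX could hardly lower it further there, so its interaction cannot show a different SMX response with sucrose. GSTU25 had an interaction of 1.56 (95% interval 0.76 to 2.36) and GSTU22 of 1.11 (0.25 to 1.98), with unadjusted p of 0.00183 and 0.0177 and adjusted p of 0.304 and 0.652. A different SMX response of these GSTU genes with sucrose was thus not shown over all probe sets.

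Neighbouring genes did not move together in every case. By gene order in the TAIR10.1 annotation 18 pairs of members are next to each other on a chromosome. The pairs given here were picked after their values were seen and do not stand for all 18. In the row UGT71C5, UGT71C4 and UGT71C3 on chromosome 1, the outer genes rose with sucrose alone by 0.65 and 1.58, and UGT71C4 between them moved by −0.02 (95% interval −0.44 to 0.39). UGT76C2 and UGT76C1 on chromosome 5 moved by 0.13 and −0.95. GSTU25 and GSTU26 on chromosome 1 moved by 1.45 and 0.10, and with sucrose plus SMX against SMX by 3.01 and −0.34. UGT71C2 and UGT71C1 on chromosome 2 both lay higher with sucrose, by 1.65 and 2.35, the first without a call. Differences between neighbours were not tested, and how far a probe set also picks up RNA of a paralog was not tested either.

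Other genes of conjugation and detoxification were covered thinly by the annotation. The 2 probe sets of other glutathione transferase classes were GSTF4, which rose with sucrose alone by 1.23 (SE 0.29; adjusted p = 0.0171) and moved by 0.08 with sucrose plus SMX against SMX (adjusted p = 0.968), and GSTL3, which was called in no comparison. Of the 2 probe sets of glutathione reductase, which regenerates reduced glutathione, GR rose with sucrose alone by 0.66 and with sucrose plus SMX against SMX by 0.88, and GR1 was called in no comparison. Of 26 probe sets with a symbol of CYP and a digit, of which CYP59 and CYP71 are cyclophilins and not cytochromes P450, 0 rose and 2 fell with sucrose alone, which is 7.69%, against 23.5% of all probe sets. They were CYP71B28 at −2.03 and CYP71B35 at −1.75 (adjusted p = 0.00113 and 0.00552). Both fell again with sucrose plus SMX against SMX, by 2.29 and 2.26, where 0 rose and 4 fell (15.4%, against 32.5% of all probe sets). With sucrose plus SMX against the control 1 rose, CYP718 at 1.32, and 3 fell (15.4%, against 27.2% of all probe sets). Many of the 26 lay near the lowest value of the arrays, where a call is hardly possible. CYP71B21, CYP71B31 and CYP79A2, for example, averaged 2.12 in every treatment. Most of the 26 bear a CYP71B symbol, so these shares do not describe the cytochromes P450 at large. None of these 30 probe sets was called for SMX alone, for SMX added to sucrose or for the interaction.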

How the data were processed

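GCRMA, which corrects background by probe sequence and normalizes, and limma are named in the submitters' processing notes, without versions; which step made the values is not given in the sources used here. The authors deposited 1 log2 value per probe set on each of 12 arrays, with array medians from 5.63 to 5.84. That the scale is log2 was read from the range, 2.12 to 15.7. The 64 Affymetrix control probe sets were left out, and 22746 were tested. Symbols came from the platform annotation, and all 58 members matched a TAIR10.1 locus by gene ID. TAIR10.1 served for names and gene order alone.

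All 12 arrays entered 1 limma fit (limma 3.58.1, R 4.3.3, lmFit and eBayes) with the 4 treatments as groups and 6 contrasts. Benjamini-Hochberg adjustment ran over all probe sets of a contrast. The fit was tested on simulated data. No depth applies to arrays, so 3 arrays per treatment limit the precision. Alternatives were a replicate block, quantile normalization, median centring, a mean above 4, only the arrays compared, both labelling scores and leaving out each array. Any expressed member (mean above 5 in a treatment) could be named, by call, by the largest uncalled changes or at the ends of the control levels, and members below that only where called; UGT71B6, UGT84B1, UGT84B2, UGT85A3, UGT76E11, GSTU15, GSTU18, GSTU21, GSTU23, UGT72E3, UGT71C4, UGT73B1, UGT76C2 and UGT78D1 were named after their values were seen, as were the neighbour pairs. The members and lists were chosen with earlier results of these data known. Sequence features were not analysed here.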

Additional observations from a re-analysis of the deposited data

Results flagged for a closer look

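The interaction of UGT85A5 was 0.90 (SE 0.0955; limma, Benjamini-Hochberg adjusted p = 0.0381): SMX changed it by −0.0041 with sucrose (95% interval −0.16 to 0.15) and by −0.90 without it (−1.06 to −0.75). The difference between both SMX effects was itself tested. The call ended with the replicate block (adjusted p = 0.091), after median centring (0.0521), with the spike score (0.0541) and without any 1 of 9 arrays. It rests on the 3 control arrays, at 2.86, 3.15 and 3.15, and on values near the lowest of the arrays, 2.12. With sucrose alone UGT85A5 already lay near that lowest value, so SMX could hardly lower it further. The interaction thus cannot show a different SMX response with sucrose.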

How the results depend on the processing

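Fits of the sucrose comparisons that held a labelling score left few calls, and they cannot separate labelling from sucrose. With the spike score, UGT calls were 0 for sucrose alone, 1 for sucrose plus SMX against control and 0 against SMX, and GSTU calls 0, 1 and 0. With the actin score they were 1, 1 and 0 for UGT and 0, 2 and 1 for GSTU. GSTU25 was then 1.578 and 1.544 for sucrose alone and 3.156 (spike score) against SMX, UGT85A5 was −0.757 (spike score) for sucrose alone, none called, and UGT76C1 against SMX was 0.011 and 0.072 and not called, against a called −0.92 without a score. Fits of only the arrays compared gave 7 UGT calls for sucrose alone, 7 for sucrose plus SMX against control and 0 for SMX alone (UGT85A5 −0.901), and GSTU25 at 1.455 missed for sucrose alone (adjusted p = 0.0522). They have fewer arrays. The UGT85A5 interaction was 0.8972 with the replicate block (adjusted p = 0.091), 0.955 after median centring and 0.923 with the spike score, leaving 0 UGT calls each time, as did the mean above 4, under which UGT85A5 was not tested (0 calls for SMX alone too). For SMX added to sucrose, GSTU calls were 1 after median centring and 2 with a mean above 4 (GSTU25 1.416 and GSTU22). GSTU25 passed that filter only through its arrays with sucrose. Leaving out 1 array gave 8 to 14 UGT calls for sucrose alone (8 without control replicate 2 or sucrose replicate 2), 7 to 14 for sucrose plus SMX against control (7 without its replicate 1 or 3), 7 to 12 against SMX (7 without sucrose plus SMX replicate 1) and 0 to 1 for the interaction, where UGT85A5 lay between 0.849 and 0.994 and lost its call without any 1 of 9 arrays. GSTU calls were then 3 to 5 for sucrose plus SMX against control, 2 to 4 against SMX (4 without control replicate 3 or sucrose replicate 3) and 0 to 1 for SMX added to sucrose. Deviations from the treatment means correlated at −0.36 to 0.22 between same-numbered arrays, with 6 of 18 pairs over 0.1. Between different-numbered arrays they correlated at −0.22 to 0.34, with 5 of 36 pairs over 0.1. Whether replicate numbers pair the samples is thus not settled. With the replicate block 16 of 16 calls stayed for sucrose alone. It was 15 of 19 for sucrose plus SMX against control and 13 of 14 against SMX. Quantile normalization ended 3 calls. A fit of the interaction on only the arrays compared is the same as the full one. The cause of these changes was not tested unless stated.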
